A study of Mus musculus with 32 samples.

Results

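The collagen chain genes are the 44 genes, of 39399 genes listed for all 32 libraries, whose symbol is Col, a type number, the letter a and a chain number. Of these 44 genes, 34 averaged at least 1 TPM (transcripts scaled to a fixed library total and corrected for gene length) in at least 1 of 12 groups of libraries, and 10 did not and were counted as not expressed. RNA sequencing was run on cochleae of 10-week-old mice after acoustic trauma and on pull-downs of tagged ribosomes from the same tissue. RiboTag mice carry a ribosomal protein that gains an HA epitope tag in cells that have expressed Cre, so that an HA antibody (immunoprecipitation, IP) enriches the transcripts being translated there. An aliquot of each homogenate, taken before the IP, is the input and represents the whole cochlea.

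PrestinCre/+;RiboTagHA/+ mice, in which the prestin gene drives Cre in outer hair cells, gave 3 pull-downs and 3 inputs at each of 6 h after noise, 24 h after noise and no noise. Sox2Cre/+;RiboTagHA/+ mice, in which the Sox2 gene drives Cre in supporting cells, gave 2 pull-downs and 2 inputs at 6 h, 3 and 3 at 24 h, and 2 and 2 without noise. Noise was 105 dB SPL for 2 h. Both strains were heterozygous for Cre and for RiboTag, in noise-exposed and control animals alike, and the design notes name the alleles as CreERT2 on a CBA background. Sox2 is also made by glia of the cochlear nerve, so the Sox2 driver is not limited to supporting cells. The labels call the replicates biological, without saying how many animals each homogenate held, so p-values measure the spread between these homogenates.

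The pull-downs carried their labelled cells' markers. All 10 outer hair cell markers, Slc26a5 (prestin) among them with a log2 difference of 2.46, were higher in the outer hair cell pull-downs than in the inputs, and 10 of 11 supporting cell markers were higher in the supporting cell pull-downs, Sox2 by 3.19. In the outer hair cell pull-downs 8 of 11 supporting cell markers and 8 of 10 Schwann cell and glia markers were higher than in the inputs, where 68.5% of all genes tested were, and the supporting cell markers summed to 1541 to 2094 TPM in control pull-downs, overlapping the 1715 to 1944 TPM of control inputs. In the supporting cell pull-downs all 10 Schwann cell and glia markers were higher, with a median of 2.33, where 55.2% of all genes tested were. The 4 Sox2 libraries taken 6 h after noise stood apart, with 15929 to 16966 genes above 0 against 17395 to 21239 in the other 28. Prestin libraries were counted over 39399 genes and Sox2 libraries over 43947. The Sox2 control pull-down of replicate 4, at 17395, lay nearest to the 6 h libraries. For some of the results that rest on the 4 libraries, fits without them are given as well. The supporting cell pull-downs at 6 h are 2 of these libraries and have no such fit. Read totals are not part of the TPM values, so depth is unknown.

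Collagens are trimers of chains that share a glycine-rich repeat. Fibrillar collagens (types I, II, III, V, XI, XXIV and XXVII) form cross-banded or fine fibrils, FACIT collagens such as type IX sit on the fibril surface, and collagen IV forms the sheet of basement membranes. In the cochlea, collagens II, V, IX and XI build the fibrils of the tectorial membrane, which lies over the hair bundles, and collagens I and II also belong to bone, ligament and cartilage of the capsule. Mutations in COL2A1, COL9A1, COL9A2, COL9A3, COL11A1 and COL11A2 cause hearing loss in humans, and those in COL4A3, COL4A4 and COL4A5 cause Alport syndrome, with hearing loss.

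The start-site windows of the chains on which the results turn are shown first: Col4a2, whose level was higher 6 h after noise, Col9a1 and Col9a2, a pair of collagen IX chains with unlike enrichment, and Col27a1, the chain with the largest enrichment. RefSeq (GRCm38.p6) had windows, each 300 bases long and reaching just past a start site, for 35 of the 44 genes, 38 windows in all. Capitals mark matches, on either strand, to any of 4 short motifs. The GC box was searched as GGGCGG, a run bound by factors such as Sp1. The CCAAT box was searched under that spelling and is known from many promoters. For the TATA box, the core element where the transcription machinery assembles, the letters were TATAAA. The Sox motif, bound by factors of the Sox family such as Sox9, was searched as ACAAAG. No base of a collagen window fell in matches to more than 1 motif. The genes lie, by GENCODE M21 on GRCm38, at chr8:11312805-11449287 (Col4a2, plus strand), chr8:11198423-11312826 (Col4a1, minus), chr1:24177610-24252684 (Col9a1, plus), chr4:121039385-121055322 (Col9a2, plus), chr2:180597790-180622189 (Col9a3, plus) and chr4:63214004-63334991 (Col27a1, plus). The windows lie at chr8:11312555-11312854 (Col4a2), chr1:24177360-24177659 (Col9a1, upstream start), chr1:24194953-24195252 (Col9a1, downstream start), chr4:121039316-121039615 (Col9a2) and chr4:63215162-63215461 (Col27a1), all read from the plus strand.
Col4a2: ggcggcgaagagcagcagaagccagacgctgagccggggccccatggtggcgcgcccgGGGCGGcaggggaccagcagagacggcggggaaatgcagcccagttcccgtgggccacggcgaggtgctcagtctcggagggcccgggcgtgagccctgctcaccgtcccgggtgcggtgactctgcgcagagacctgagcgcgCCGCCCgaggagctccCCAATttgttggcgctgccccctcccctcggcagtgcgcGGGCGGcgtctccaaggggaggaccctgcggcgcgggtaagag
Col9a1 upstream start: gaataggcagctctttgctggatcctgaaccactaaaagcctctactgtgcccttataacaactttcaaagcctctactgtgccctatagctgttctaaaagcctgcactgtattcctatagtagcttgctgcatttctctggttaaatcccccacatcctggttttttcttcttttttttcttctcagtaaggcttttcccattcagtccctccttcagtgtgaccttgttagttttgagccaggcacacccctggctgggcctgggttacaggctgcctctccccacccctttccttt
Col9a1 downstream start: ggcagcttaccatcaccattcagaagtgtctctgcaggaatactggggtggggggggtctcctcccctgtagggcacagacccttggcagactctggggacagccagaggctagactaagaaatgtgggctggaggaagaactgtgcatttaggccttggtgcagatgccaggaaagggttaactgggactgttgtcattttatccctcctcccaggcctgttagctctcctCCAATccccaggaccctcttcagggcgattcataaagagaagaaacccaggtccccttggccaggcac
Col9a2: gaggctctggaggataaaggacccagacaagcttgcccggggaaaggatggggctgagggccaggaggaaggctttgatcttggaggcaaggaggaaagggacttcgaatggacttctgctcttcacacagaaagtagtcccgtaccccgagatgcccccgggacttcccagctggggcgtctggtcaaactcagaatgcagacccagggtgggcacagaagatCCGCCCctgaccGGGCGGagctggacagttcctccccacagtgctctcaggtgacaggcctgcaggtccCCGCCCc
Col27a1: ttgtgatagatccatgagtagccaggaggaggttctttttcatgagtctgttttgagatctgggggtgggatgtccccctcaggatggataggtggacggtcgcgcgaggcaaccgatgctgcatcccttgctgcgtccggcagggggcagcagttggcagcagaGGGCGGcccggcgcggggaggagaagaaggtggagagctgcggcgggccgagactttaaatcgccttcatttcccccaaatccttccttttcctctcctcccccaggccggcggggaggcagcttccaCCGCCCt

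The Col4a2 window held 3 GC boxes and 1 CCAAT box, and it shares 78 bases (chr8:11312777-11312854) with the window of Col4a1, which is transcribed the other way from a start 21 bases off. The Col9a2 window held 3 GC boxes and that of Col27a1 held 2, whereas neither Col9a1 window held one. The downstream Col9a1 window held 1 CCAAT box and the upstream window no match. Over the 38 collagen windows, 60.5% held a GC box, 34.2% a CCAAT box, 13.2% a TATA box and 13.2% a Sox motif. Over 32851 RefSeq windows the shares were 35.7%, 37.4%, 13.6% and 18.7%. The 32851 windows left out a chromosome that holds no collagen chain gene. The median GC content was 59.8% in collagen windows and 52.7% in the 32851 windows. A match is a run of letters, and nothing about binding was measured.

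Col9a2, a chain of the FACIT collagen IX, and Col11a2, a chain of the fibrillar collagen XI, were the most abundant collagen transcripts of the whole cochlea, with means over the 16 inputs of 102 and 72.8 TPM. Col1a2, a chain of collagen I of bone and ligament, followed with 27.2 TPM, Col9a3 with 18.4 TPM and Col2a1, the chain of cartilage collagen II, with 14.1 TPM. Next in the order came Col8a2 and Col8a1, chains of the short network collagen VIII, with 8.98 and 5.82 TPM, and Col1a1 with 6.92 TPM between them. All 11 fibrillar genes were expressed in at least 1 group, 8 of them in an input group. Of 9 FACIT genes 7 were expressed, of 6 collagen IV genes 5, of 6 collagen VI genes 3, of 4 transmembrane collagens 2 and of 2 multiplexins both. Only 20 of the 44 genes averaged 1 TPM in any input group.

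The collagen share of all TPM was 0.0486 to 0.122% in the outer hair cell pull-downs, against 0.0221 to 0.0314% in their inputs. It was 0.0650 to 0.110% in the supporting cell pull-downs, against 0.0270 to 0.0359% in theirs, so in both strains every pull-down held a larger collagen share than every input. In the pull-downs Col11a2 led, with means of 361 TPM over the 9 outer hair cell pull-downs and 354 TPM over the 7 supporting cell pull-downs. The 10 genes not expressed were Col4a6, Col6a4, Col6a5, Col6a6, Col10a1, Col13a1, Col17a1, Col19a1, Col22a1 and Col28a1, and each stayed under 1 TPM in every library. Col10a1, the marker chain of hypertrophic cartilage, was listed at 0 in 26 of 32 libraries. Nearest to the limit, Col13a1 reached a highest group mean of 0.524 TPM on one side, and Col23a1, a transmembrane collagen, 1.20 TPM on the other.

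**Figure D1:**
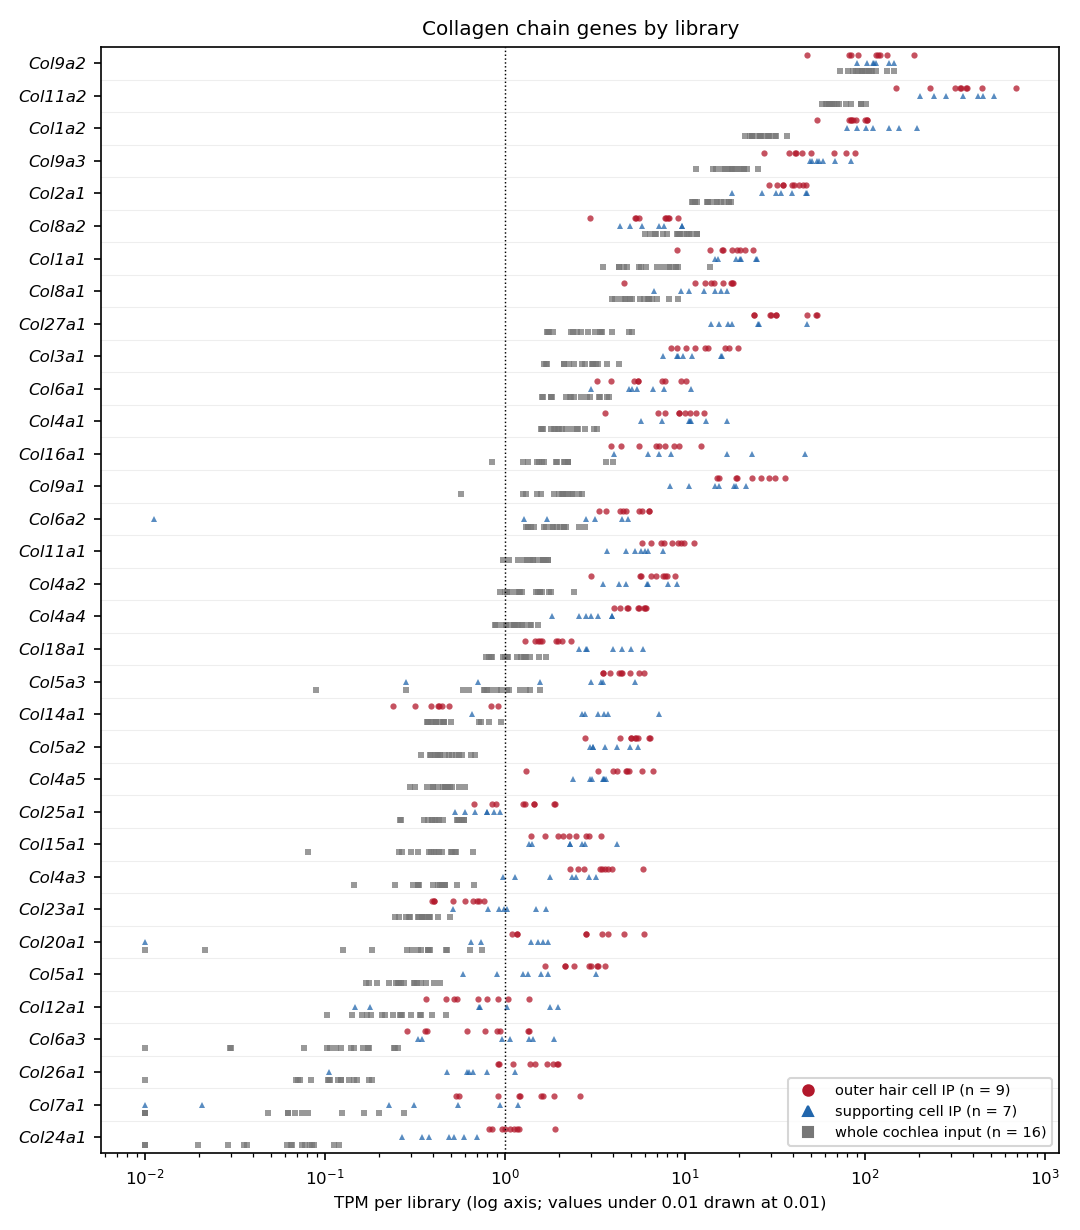
TPM (log axis) of each of the 34 expressed collagen chain genes in every library, ordered by mean input level, with outer hair cell pull-downs as circles, supporting cell pull-downs as triangles, inputs as squares and a dotted line at 1 TPM. Col9a2 pull-downs and inputs overlap, while the Col27a1 and Col9a1 pull-downs lie to the right of all inputs.

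The first comparison asks which chains the ribosome pull-downs hold beyond the whole cochlea. In the outer hair cell pull-downs, Col27a1, a fibrillar chain of cartilage, and Col9a1 had the largest differences, both about 3 on the log2 scale, and Col11a2, Col3a1 and Col5a2 about 2. Col27a1 ranged over 24.3 to 54.2 TPM in the 9 outer hair cell pull-downs and 1.75 to 4.87 TPM in the 9 Prestin inputs. No pull-down of this strain came near an input for this gene. The log2 difference of Col27a1 was 3.18 ± 0.08 (SE) with an adjusted p of 1.28e-12, by limma on log2(TPM + 1) with Benjamini-Hochberg adjustment over all 17363 genes tested. On that scale the change of genes near or under 1 TPM is understated.

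Col9a1 spanned 15.0 to 36.1 TPM in the outer hair cell pull-downs and 1.31 to 2.57 TPM in their inputs, again without overlap (3.03 ± 0.11, adjusted p = 1.04e-11). Its partner chain Col9a2 spanned 47.5 to 187 TPM in the pull-downs and 73.2 to 115 TPM in the inputs. These ranges overlapped throughout, with a log2 difference of 0.10 (95% interval -0.21 to 0.41, adjusted p = 0.534), and only 5 of 9 pull-downs lay above their own input. Col9a3, the remaining chain, was higher in the pull-downs (1.43 ± 0.10, adjusted p = 4.01e-09). Col8a2 was the single member that was lower (-0.28 ± 0.11, adjusted p = 0.0276), with 2.96 to 9.15 TPM in the pull-downs and 6.01 to 10.8 TPM in the inputs, and its call was lost without Prestin 24 h replicate 1 (-0.25, adjusted p = 0.0895), 24 h replicate 2 (-0.28, adjusted p = 0.0610) or control replicate 3 (-0.23, adjusted p = 0.0715).

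Of the 30 members tested, 28 were higher, 1 was lower and 1 was not called, where 76.1% of all genes tested were called, 68.5% as higher and 7.68% as lower. The median log2 difference was 1.50 over these members and 0.82 over all genes tested. The filter asked for 1 TPM in only 3 libraries, so a member high in the pull-downs alone passed by being high there, and the 14 members under it were not tested. That held for Col4a3, Col4a5, Col5a1, Col5a2, Col7a1, Col15a1, Col20a1, Col24a1, Col25a1 and Col26a1, each under 1 TPM in every Prestin input. Their calls are descriptions. All 11 fibrillar genes tested were higher, with Col11a2 at 2.29, Col3a1 at 2.03, Col2a1 at 1.55 and Col1a1 at 1.51. All 5 collagen IV genes tested were higher as well, among them Col4a5 at 1.84 and the endothelial-type chain Col4a1 at 1.73. When libraries were scaled by a median of ratios, which shifts the median gene by -0.77, 23 of 29 members tested were higher and 2 lower, and Col9a2 turned to -0.97 (adjusted p = 7.9e-05). With that scaling the median was 0.72 over members and 0.05 over all genes. The share of all genes called with it is not given, so these counts are descriptions.

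The supporting cell pull-downs also had Col27a1, Col9a1 and Col11a2 on top, over 18560 genes tested. Col27a1 spanned 13.96 to 47.6 TPM in the 7 supporting cell pull-downs and 1.72 to 5.12 TPM in the 7 Sox2 inputs (2.66 ± 0.19, adjusted p = 1.36e-06), and Col9a1 8.29 to 21.8 TPM in the pull-downs and 0.568 to 2.69 TPM in the inputs (2.52 ± 0.13, adjusted p = 1.97e-07). Neither gene overlapped between pull-downs and inputs. Col11a2 (2.06 ± 0.22), Col1a2 (1.97 ± 0.16) and the FACIT chain Col16a1 (1.95 ± 0.25) followed. Col9a2 was not called (0.09 ± 0.09, 95% interval -0.12 to 0.30, adjusted p = 0.456), and neither were Col20a1, a FACIT chain, at 0.62 (adjusted p = 0.0593) and Col6a2, a collagen VI chain, at 0.15 (adjusted p = 0.666).

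Of 30 members tested here, 26 were higher and 1 lower, where 57.9% of all genes were called, 55.2% as higher and 2.72% as lower. The medians were 1.14 over these members and 0.65 over all genes. Col4a3, Col4a5, Col5a1, Col5a2, Col6a3, Col12a1, Col14a1, Col15a1, Col20a1 and Col23a1 were under 1 TPM in every Sox2 input. They passed the filter through pull-downs alone, so any calls among them are descriptions. The member called as lower was Col8a2 (-0.50 ± 0.19, adjusted p = 0.0480), under its own input in all 7 supporting cell pull-downs. Its call was lost without any 1 of the 7 homogenates (adjusted p from 0.0513 to 0.181) and without the 6 h libraries (-0.49, adjusted p = 0.0823). Without those libraries 26 members were called as higher and none as lower, with Col20a1 now at 0.69 (adjusted p = 0.0308). With homogenate as a replicate block, which pairs each pull-down with its own input, Col20a1 was called (adjusted p = 0.048) and Col5a3 and Col12a1 were not (adjusted p = 0.065 and 0.067). Under the median of ratios (median shift -0.63), 17 of 29 were higher and 2 lower, with Col9a2 at -0.82. There the median was 0.69 over members and 0.02 over all genes, and the share of all genes called is not given.

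**Figure D2:**
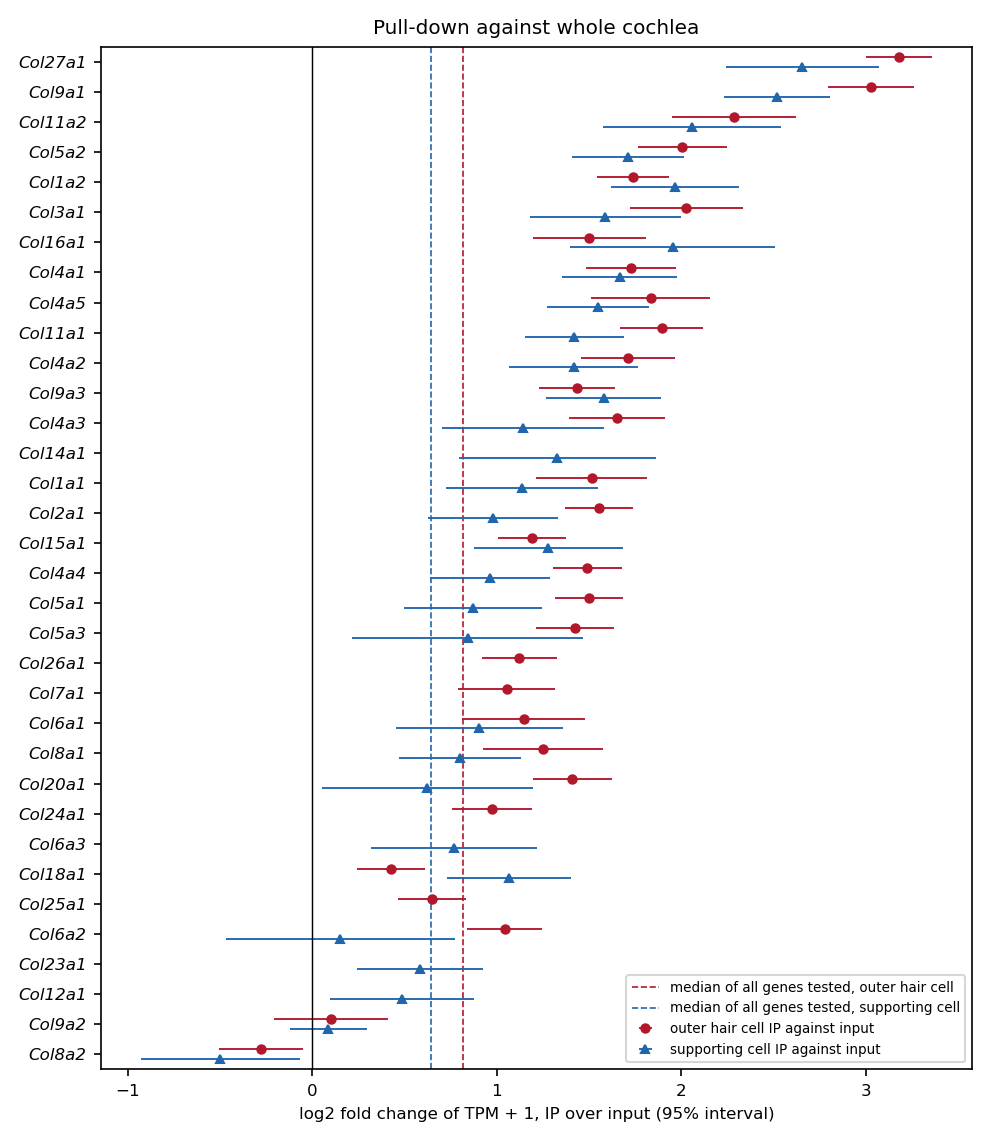
Log2 difference between pull-down and own-strain input (log2(TPM + 1), with 95% intervals) for each tested collagen chain gene, outer hair cell pull-downs as circles and supporting cell pull-downs as triangles, with the medians of all genes as dashed lines. Col27a1 and Col9a1 lie farthest right in both kinds of pull-down and Col8a2 lies left of 0.

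Markers of other cells are given beside these differences, again where 68.5% of all genes tested were higher in the outer hair cell and 55.2% in the supporting cell pull-downs. Cartilage markers were higher in the outer hair cell pull-downs for 4 of 6 genes tested, with summed levels of 528 to 1991 TPM in pull-downs and 515 to 683 TPM in inputs, and in the supporting cell pull-downs for 3 of 7, with 766 to 1370 TPM in pull-downs and 485 to 752 TPM in inputs. The cartilage gene Snorc was at 0 throughout 6 of the 12 groups. Pericyte and smooth muscle markers were higher for 7 of 8 genes in the outer hair cell pull-downs and 2 of 7 in the supporting cell pull-downs. Fibroblast markers summed to 4605 to 7189 TPM in the outer hair cell pull-downs against 8370.5 to 12093 TPM in their inputs. Osteoblast and osteocyte markers summed to 72.9 to 116 TPM in the outer hair cell pull-downs against 80.9 to 133 TPM in their inputs. In the supporting cell pull-downs they summed to 50.6 to 89.9 TPM against 49.9 to 70.4 TPM. The part of these cells in the collagen values was not tested, and in bulk samples fewer cells of a type and less RNA per cell cannot be told apart.

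Genes that make, sense or bind collagen are read against the same shares, 68.5% higher and 7.68% lower of all genes tested in the outer hair cell pull-downs, and 55.2% higher and 2.72% lower in the supporting cell pull-downs. Of 27 tested genes for collagen synthesis and processing, 25 were higher and 1 lower in the outer hair cell pull-downs, and 22 were higher and 1 lower in the supporting cell pull-downs. Plod2, a lysyl hydroxylase (2.76 ± 0.14 in the outer hair cell and 2.24 ± 0.11 in the supporting cell pull-downs), Lox, a cross-linking lysyl oxidase (2.33 ± 0.25 and 1.84 ± 0.12), and Serpinh1, the collagen chaperone of the endoplasmic reticulum (1.15 ± 0.19 and 0.89 ± 0.12), were higher in both. P4hb, the beta subunit of prolyl hydroxylase, was lower in the outer hair cell pull-downs (-0.20 ± 0.06) and higher in the supporting cell pull-downs (0.30 ± 0.08). Of 5 receptor genes tested, 4 were higher in the outer hair cell and 3 in the supporting cell pull-downs, Itga10, an integrin subunit that binds collagen II, in both (1.52 ± 0.16 and 0.83 ± 0.22). Among collagen-binding matrix genes, 6 of 15 were higher and 4 lower in the outer hair cell pull-downs, and 7 of 16 were higher and 1 lower in the supporting cell pull-downs. Sparc was higher (3.19 and 2.92) and Dcn, the small proteoglycan decorin, lower (-1.05 and -1.16) in both, while Lum, the proteoglycan lumican, was lower in the outer hair cell (-0.89) and higher in the supporting cell pull-downs (0.93).

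Chains that assemble together were compared within libraries, since TPM is corrected for length. The level of Col9a2 was 2.54 to 12.4 times that of Col9a1 in the outer hair cell pull-downs and 6.17 to 13.4 times in the supporting cell pull-downs, against 35.7 to 158 times in the 16 inputs. The ranges of pull-downs and inputs did not meet. Col9a2 over Col9a3 had a median of 2.12 in the outer hair cell pull-downs and 2.05 in the supporting cell pull-downs, against 5.33 in the inputs. Col1a2 over Col1a1, the chains of collagen I, had medians of 4.93 in the outer hair cell pull-downs, 6.17 in the supporting cell pull-downs and 4.66 in the inputs, and the 3 ranges overlapped. The ranges of Col4a1 over Col4a2, whose chains join in the common basement membrane trimer, overlapped too, with medians of 1.44 in the outer hair cell pull-downs, 1.73 in the supporting cell pull-downs and 1.57 in the inputs. Col8a1 over Col8a2 had medians of 2.27 and 1.65 in the pull-downs against 0.614 in the inputs. All these values pool the times. In Prestin inputs Col1a2 over Col1a1 was 2.95 to 4.12 in controls, against 4.78 to 6.21 at 6 h and 5.32 to 5.69 at 24 h. In outer hair cell pull-downs it was 3.32 to 3.89 in controls, against 4.71 to 9.13 and 4.93 to 6.44. In the Sox2 strain the times overlapped in inputs and in pull-downs.

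The strains' enrichments were then set against each other as outer hair cell minus supporting cell enrichment, in 1 fit over 19648 genes. Of 34 members tested, 12 had the larger enrichment in the outer hair cell pull-downs and 2 in the supporting cell pull-downs, where 21.6% of all genes were called, 14% and 7.62% in these directions. The median gene lay at 0.19. Col14a1, a FACIT chain of tendon and skin, had the largest difference among the members (-1.32 ± 0.22, adjusted p = 2.62e-04). It spanned 0.241 to 0.917 TPM in the outer hair cell pull-downs against 0.372 to 0.735 TPM in their inputs, and 0.659 to 7.15 TPM in the supporting cell pull-downs against 0.368 to 0.947 TPM in theirs. In the supporting cell pull-downs it thus reached levels seen in no other kind of library, without all 7 lying above the inputs. It passed the filter only through 6 of the 7 supporting cell pull-downs, with under 1 TPM in every other library, so its call is given as a description. Col18a1, the multiplexin from which endostatin is cut and at 1 TPM or more in some inputs of both strains, went the same way (-0.64 ± 0.15, adjusted p = 0.00472).

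The 12 members with the larger outer hair cell enrichment included Col6a2 (0.89 ± 0.26), Col20a1 (0.79 ± 0.24), Col7a1, the chain of anchoring fibrils (0.64 ± 0.22), Col5a1 (0.63 ± 0.16), Col2a1 (0.57 ± 0.17), Col27a1 (0.52 ± 0.19) and Col9a1 (0.51 ± 0.17). Col9a2 (0.01, 95% interval -0.38 to 0.41), Col11a2 (0.23, -0.33 to 0.78) and Col1a1 (0.38, -0.10 to 0.86) were not called. Col5a1, Col7a1, Col20a1, Col24a1, Col25a1 and Col26a1 stayed under 1 TPM in every input and passed the filter through pull-downs alone, Col24a1 and Col25a1 through 6 outer hair cell pull-downs each, so the calls of these 6 are likewise descriptions. Without the 6 h libraries of both strains, 6 members were called in the first direction and 2 in the second, and Col6a2 was at 0.51 (adjusted p = 0.228). Col6a2 was at 1.71 and 0.0112 TPM in the supporting cell pull-downs at 6 h, against 1.32 to 2.80 TPM in all Sox2 inputs. Scaled by a median of ratios (median 0.24 over members and 0.08 over all genes), 3 and 2 were called, and with the replicate block 9 and 2. Shares of all genes called are not given for these fits. Col14a1 and Col18a1 stayed called in all 3 of these fits, while none was called in the control libraries alone. Leaving out 1 homogenate gave 8 calls (without Sox2 control replicate 1) to 15 calls (without Prestin control replicate 1). The Col27a1 call was lost in 13 of these 16 fits (adjusted p up to 0.306), that of Col7a1 in 11 and that of Col9a1 in 9. Those of Col14a1, Col18a1 and Col5a1 were lost in none. In the same contrast, 8 of 11 supporting cell markers and 8 of 10 Schwann cell and glia markers had the larger supporting cell enrichment, with summed Schwann cell and glia levels of 1398 to 2407 TPM in outer hair cell pull-downs and 2897 to 8926 TPM in supporting cell pull-downs, and their part was not tested.

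The next question was what noise does to the collagen chains of the whole cochlea. At 6 h, the collagen IX chains Col9a2 and Col9a1 fell and the basement membrane chain Col4a2 rose, in a fit over the inputs of both strains with strain as a covariate. Col9a2 was at 85.9, 73.2 and 81.0 TPM in Prestin inputs 6 h after noise, against 105, 115 and 96.0 TPM in Prestin control inputs. In Sox2 inputs it was at 89.6 and 91.9 TPM at 6 h, against 133 and 145 TPM in controls. Within each strain the noise-exposed inputs all lay below the controls, and the log2 difference was -0.48 ± 0.09 (adjusted p = 0.00429). It stayed called whichever library was left out.

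Col9a1 was at 1.51, 1.31 and 1.59 TPM in Prestin inputs at 6 h, against 2.11, 2.11 and 2.07 TPM in controls. In Sox2 inputs it was at 0.568 and 1.26 TPM at 6 h, against 2.00 and 1.88 TPM in controls. The groups were again apart in both strains (-0.45 ± 0.11, adjusted p = 0.0227), and the call was lost without Sox2 control replicate 1 (-0.43, adjusted p = 0.0646). Col9a3 was below its controls in both strains too, with 18.3, 17.97 and 18.2 TPM in Prestin inputs at 6 h against 19.9, 21.3 and 20.4 TPM in controls, but by less, and it was not called (-0.22 ± 0.11, adjusted p = 0.221). It was at 21.3 and 17.4 TPM in Sox2 inputs at 6 h, against 25.5 and 22.1 TPM in controls.

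Col4a2 was at 1.77, 1.58 and 1.53 TPM in Prestin inputs at 6 h, against 1.001, 1.25 and 0.944 TPM in controls. In Sox2 inputs it was at 1.48 and 2.42 TPM at 6 h, against 1.07 and 1.03 TPM in controls. All 6 h inputs lay above all controls of their strain (0.41 ± 0.10, adjusted p = 0.0228), though the call was lost in 4 of the 16 fits that left out 1 input. Those left out Prestin control replicate 3 (0.41, adjusted p = 0.0546), Prestin 6 h replicate 1 (0.39, 0.0591), Sox2 control replicate 1 (0.39, 0.0684) and Sox2 control replicate 4 (0.38, 0.0600). Col4a1, its head-to-head neighbour, was at 2.53, 2.36 and 1.91 TPM in Prestin inputs at 6 h, against 1.63, 1.60 and 1.61 TPM in controls, and at 2.20 and 3.15 TPM in Sox2 inputs at 6 h, against 1.97 and 1.87 TPM in controls. Its groups were also apart in both strains, with 0.32 ± 0.10 (adjusted p = 0.0572), not called here but called with median-of-ratios scaling (0.37, adjusted p = 0.020). The 2 genes share 22 exonic bases on opposite strands.

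At 6 h, 8 of the 20 members tested had an unadjusted p under 0.05, as had 3550 of 14204 genes. After adjustment 1 member was called as higher and 2 as lower, where 8.54% of the genes were called, 3.83% as higher and 4.71% as lower. The median was -0.07 over members and -0.09 over all genes. The count ran from 1, without Sox2 control replicate 1, to 6, without Sox2 6 h replicate 2. In the Prestin inputs alone, where no 6 h library stood apart, none was called, with Col9a2 at -0.39 (adjusted p = 0.0501), Col9a1 at -0.33 (adjusted p = 0.110) and Col4a2 at 0.35 (adjusted p = 0.136). No member's 6 h response was called as different between strains, where 1.02% of 16041 genes were, by limma. An unadjusted p under 0.05 was reached by 1 member, Col3a1, and by 2366 of those genes.

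At 24 h Col9a3 fell, while Col9a1 and Col9a2 were not called. Col9a3 was at 14.9, 16.1 and 14.4 TPM in Prestin inputs 24 h after noise, against 19.9, 21.3 and 20.4 TPM in controls. In Sox2 inputs it was at 18.9, 11.5 and 16.7 TPM at 24 h, against 25.5 and 22.1 TPM in controls. In both strains every 24 h input lay below every control. The log2 difference was -0.49 ± 0.10 (adjusted p = 0.0104), and it stayed called whichever library was left out and in the Prestin inputs alone (-0.42, adjusted p = 0.0141). Part of Col9a3, 6.07% of its exonic bases, lies opposite exons of Tcfl5, whose highest level was 3.10 TPM.

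Col9a3 was the 1 member of 20 called at 24 h, where 4.44% of all genes were called, 3.78% as higher and 0.662% as lower. At an unadjusted p under 0.05 there were 8 of the 20 members and 2208 of 14204 genes. Col27a1 was at 1.85, 2.32 and 1.75 TPM in Prestin inputs at 24 h, against 3.44, 4.87 and 3.94 TPM in controls, and at 3.19, 2.53 and 2.40 TPM in Sox2 inputs, against 5.12 and 2.91 TPM in controls. It was lower without overlap only in the Prestin strain, and over both strains the difference was not called (-0.58 ± 0.17, adjusted p = 0.0747). It was called in the Prestin inputs alone (-0.77, adjusted p = 0.0241) and without the Sox2 6 h inputs (-0.61, adjusted p = 0.0181). No member's 24 h response was called as different between strains, where 0.00623% of genes were, by limma. An unadjusted p under 0.05 was reached by 3 of 20 members and by 1214 of 16041 genes. Col4a1 (0.28 ± 0.09), Col8a1 (0.39 ± 0.12) and Col16a1 (0.48 ± 0.17) lay above the controls without overlap in both strains and were not called (adjusted p = 0.121, 0.0865 and 0.168). How many of all genes were apart in this way was not counted, so the lack of overlap is a description.

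The abundant fibrillar chains were not called at either time. Col11a2 was at 67.3, 57.6 and 64.0 TPM in Prestin inputs at 6 h and 65.3, 72.0 and 61.0 TPM at 24 h, against 63.6, 95.1 and 69.8 TPM in controls. In Sox2 inputs it was at 63.4 and 78.8 TPM at 6 h and 84.0, 61.3 and 65.4 TPM at 24 h, against 101 and 94.9 TPM in controls. Col11a2 lay below both controls in the Sox2 strain and overlapped them in the Prestin strain, with -0.34 ± 0.12 at 6 h (adjusted p = 0.0983) and -0.32 ± 0.12 at 24 h (adjusted p = 0.173). Col1a1 was at 5.55, 3.50 and 4.30 TPM in Prestin inputs at 6 h and 4.80, 4.61 and 4.34 TPM at 24 h, against 8.92, 5.72 and 8.12 TPM in controls. In Sox2 inputs Col1a1 was at 7.03 and 8.90 TPM at 6 h and 6.12, 13.8 and 7.58 TPM at 24 h, against 9.19 and 8.27 TPM in controls. It lay below the controls in the Prestin strain and overlapped them in the Sox2 strain, with -0.44 ± 0.19 at 6 h (adjusted p = 0.175) and -0.35 ± 0.19 at 24 h (adjusted p = 0.410). Col2a1 had differences of 0.14 ± 0.09 and 0.05 ± 0.09, and Col1a2 of -0.10 ± 0.10 and 0.03 ± 0.10.

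Between the noise times, Col9a1 was higher at 24 h than at 6 h. It was at 2.18, 2.37 and 2.57 TPM in Prestin inputs at 24 h, against 1.51, 1.31 and 1.59 TPM at 6 h, and at 2.38, 2.69 and 2.24 TPM in Sox2 inputs at 24 h, against 0.568 and 1.26 TPM at 6 h. The times were apart in both strains (0.63 ± 0.11, adjusted p = 0.00136), also with any 1 input left out and in the Prestin inputs alone (0.45, adjusted p = 0.0279). Its 24 h inputs lay above the controls in both strains as well, with a log2 difference from controls of 0.18 ± 0.11 (adjusted p = 0.479). Col8a2 was also called (0.37 ± 0.12, adjusted p = 0.0417), but 13 of the 16 fits that left out 1 input lost that call (adjusted p from 0.0512 to 0.113), all but those without Prestin control replicate 2, Sox2 24 h replicate 2 and Sox2 6 h replicate 2. In Prestin inputs Col8a2 was at 10.8, 9.12 and 9.02 TPM at 24 h, against 6.84, 6.01 and 6.40 TPM at 6 h, without overlap. In Sox2 inputs it was at 10.6, 9.31 and 11.7 TPM at 24 h, against 11.7 and 6.91 TPM at 6 h, with overlap. Col8a2 was not called with median-of-ratios scaling either (0.29, adjusted p = 0.136). Col9a2 (0.26 ± 0.09, adjusted p = 0.0524) and Col9a3 (-0.28 ± 0.10, adjusted p = 0.0792) were not called between the times, though Col9a3 was called as lower at 24 h with that scaling (-0.37, adjusted p = 0.0269). Of 20 members 2 were thus higher, where 16.1% of all genes were called, 12.6% as higher and 3.48% as lower.

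**Figure D3:**
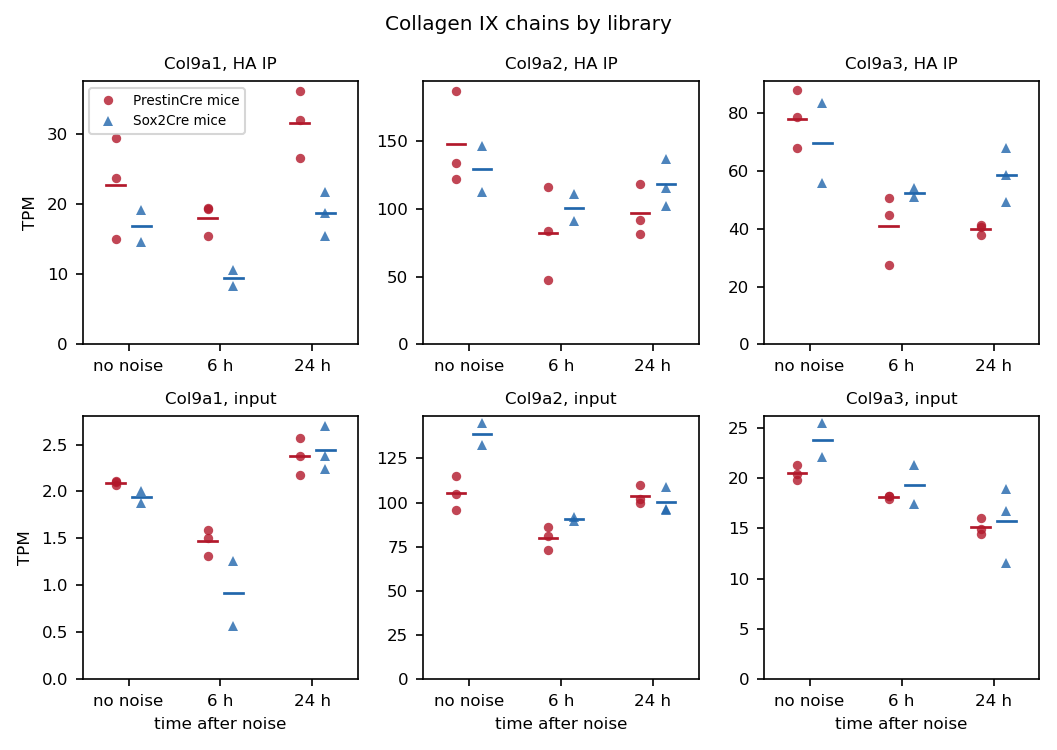
TPM of the collagen IX chains Col9a1, Col9a2 and Col9a3 in each library (points) by time (no noise, 6 h, 24 h after noise), pull-downs above inputs, with lines at group means. In the inputs Col9a1 and Col9a2 are lowest at 6 h, while Col9a3 is lowest at 24 h in the Prestin inputs.

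Marker genes of other cells moved with noise in the inputs, where 3.83% of all genes tested were higher and 4.71% lower at 6 h, and 3.78% higher and 0.662% lower at 24 h. Of 6 cartilage markers tested, 1 was lower at 6 h (Acan, -0.73) and 2 at 24 h (Acan, -0.47, and Ucma, -0.67). Their summed levels in Prestin inputs were 515 to 681 TPM at 6 h and 558 to 598 TPM at 24 h, against 595 to 683 TPM in controls, and in Sox2 inputs 621 to 752 TPM and 485 to 583 TPM, against 708 to 713 TPM. Macrophage markers were higher for 4 of 8 genes at 24 h, with 388 to 415 TPM in Prestin inputs against 152 to 173 TPM in controls and 324 to 485 TPM in Sox2 inputs against 191 to 205 TPM. Fibroblast markers summed to 8701 to 10304 TPM in Prestin inputs at 6 h and 8370.5 to 9549.6 TPM at 24 h, against 10796 to 12093 TPM in controls, and in Sox2 inputs to 9736 to 9975 TPM and 6293 to 8062 TPM, against 10613 to 11953 TPM. Supporting cell markers were higher for 3 of 11 genes at 24 h, with 2346 to 2502 TPM in Prestin inputs against 1715 to 1944 TPM in controls and 2422 to 2723 TPM in Sox2 inputs against 1953 to 2101 TPM. Endothelial markers, whose cells lie on basement membrane, summed at 6 h to 192 to 241 TPM in Prestin inputs against 263 to 316 TPM in controls and to 215 to 263 TPM in Sox2 inputs against 287 to 293 TPM, with 0 of 7 genes called by limma. Osteoblast and osteocyte markers summed to 93.1 to 109 TPM in Prestin inputs at 6 h and 80.9 to 88.5 TPM at 24 h, against 105 to 133 TPM in controls. In Sox2 inputs they summed to 70.3 to 70.4 TPM at 6 h and 49.9 to 68.9 TPM at 24 h, against 62.3 to 62.5 TPM. The sums of fibroblast markers at both times, of supporting cell and macrophage markers at 24 h and of endothelial markers at 6 h did not overlap the controls in either strain. Their part in the collagen changes was not tested.

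**Figure D4:**
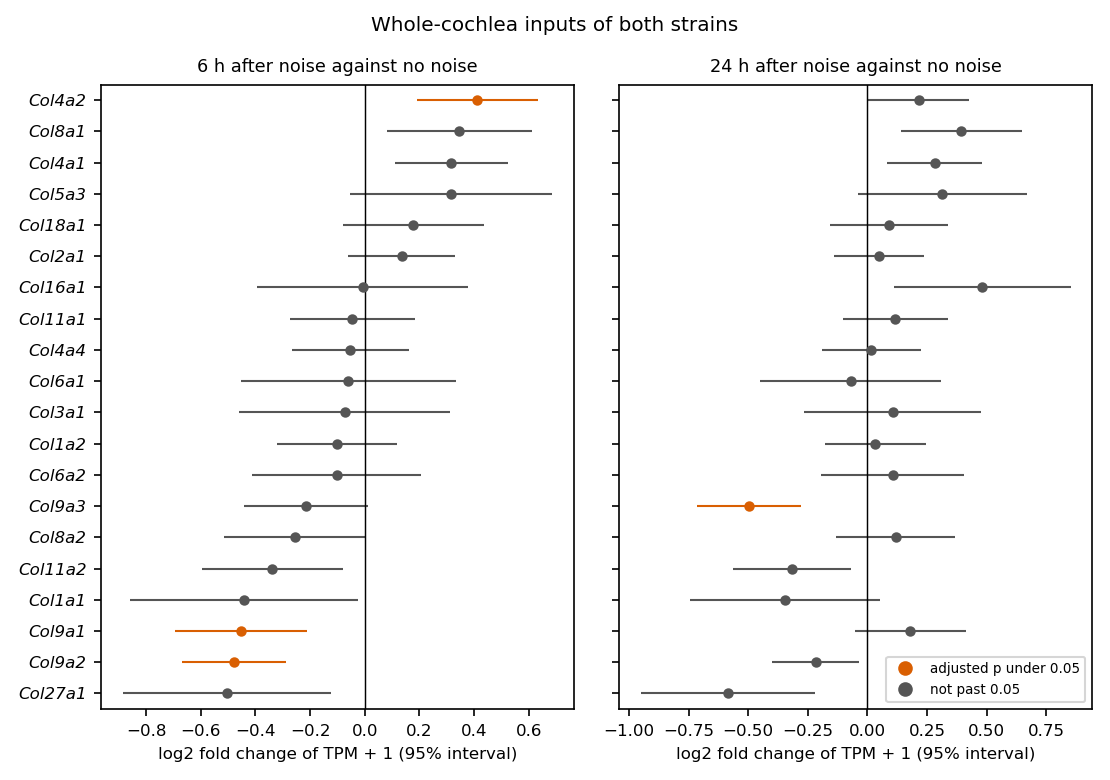
Log2 differences of the collagen chain genes tested in the inputs, 6 h and 24 h after noise against control, with 95% intervals from the fit over both strains. Col9a2 and Col9a1 lie left of 0 at 6 h, Col4a2 lies right of 0 at 6 h and Col9a3 lies left of 0 at 24 h.

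In the whole cochlea some genes that make, bind or sense collagen moved with noise. Of 24 tested genes for collagen synthesis and processing, 5 rose and 1 fell at 6 h in the whole cochlea, where 3.83% of all genes rose and 4.71% fell, and 6 rose at 24 h, where 3.78% rose and 0.662% fell. Plod3, a lysyl hydroxylase (0.63 ± 0.11 at 6 h, 0.59 ± 0.10 at 24 h), P4hb (0.34 ± 0.06 and 0.36 ± 0.06), and Lox (0.51 ± 0.11 and 0.55 ± 0.10), rose at both times. Colgalt1, which puts galactose on hydroxylysine, fell at 6 h (-0.33 ± 0.09), and the chaperone Fkbp10 rose at 24 h (0.46 ± 0.09). Of 5 receptors tested, Ddr1, a collagen-activated tyrosine kinase, rose at both times (0.74 ± 0.08 and 0.60 ± 0.08). Among 13 collagen-binding matrix genes, Sparc rose at both times (0.61 ± 0.08 and 0.46 ± 0.07), Matn4 fell at 6 h (-0.48 ± 0.08) and Dcn (decorin) fell at 24 h (-0.52 ± 0.13). In the Prestin inputs alone, a fit of these genes chosen after seeing the data that leaves out the Sox2 6 h libraries, Plod3 (0.62, adjusted p = 0.0284), P4hb (0.23, adjusted p = 0.0457), Ddr1 (0.72, adjusted p = 0.00732), Sparc (0.64, adjusted p = 0.00118) and Matn4 (-0.59, adjusted p = 0.0174) were still called at 6 h. Lox (0.49, adjusted p = 0.114) and Colgalt1 (-0.19, adjusted p = 0.257) were not, nor at 24 h were Lox (0.49, adjusted p = 0.113), Fkbp10 (0.34, adjusted p = 0.0644) and Dcn (-0.34, adjusted p = 0.221).

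In the outer hair cell pull-downs after noise, Col27a1 and Col9a3 fell at both times and Col20a1 at 24 h. Col27a1 was at 31.97, 24.3 and 32.2 TPM at 6 h and 29.9, 24.4 and 30.0 TPM at 24 h, against 47.9, 53.6 and 54.2 TPM in control pull-downs. Every pull-down after noise lay below every control. The differences were -0.80 ± 0.16 at 6 h (adjusted p = 0.0357) and -0.87 ± 0.16 at 24 h (adjusted p = 0.0282). Col9a3 was at 44.9, 27.5 and 50.5 TPM at 6 h and 41.3, 37.9 and 40.7 TPM at 24 h, against 88.0, 78.8 and 67.9 TPM in controls, also without overlap (-0.95 ± 0.22, adjusted p = 0.0499 at 6 h, -0.94 ± 0.22, adjusted p = 0.0490 at 24 h). Its partners were not called, with Col9a2 at -0.90 and -0.59 and Col9a1 at -0.27 and 0.49. For some chains control replicate 1 lay apart from the other control pull-downs. It held Col9a2 at 187 against 134 and 122 TPM, Col9a1 at 15.0 against 29.4 and 23.7 TPM and Col11a2 at 689 against 445 and 371 TPM.

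Col20a1 was at 1.17, 1.10 and 1.16 TPM in the outer hair cell pull-downs at 24 h, below all controls at 5.93, 4.60 and 3.48 TPM (-1.38 ± 0.22, adjusted p = 0.0211). It shares 1.54% of its exonic bases with BX649560.1 on the same strand, which reached 105 TPM, so reads there may have been split between the genes. Of 30 members tested, 2 were lower and none higher at 6 h, where 5.63% of 16703 genes were called, 0.856% as higher and 4.77% as lower. At 24 h 3 were lower and none higher, where 6.23% were called, 1.1% as higher and 5.14% as lower. The median gene lay at -0.17 at 6 h and -0.15 at 24 h, and relative to it Col27a1 was at -0.63 and -0.72.

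At 6 h both calls were lost when any 1 of the 9 pull-downs was left out (adjusted p from 0.0527 to 0.128), and under the median of ratios (which shifts the median gene by 0.20). Leaving out a pull-down also loosened the filter, so the library and the set of genes tested changed together. At 24 h the Col20a1 call was lost without any 1 of the 24 h pull-downs (adjusted p from 0.0669 to 0.0854) and that of Col27a1 without any 1 of them or control replicate 3 (0.0625 to 0.106). The Col9a3 call was lost in all such fits but the one without 6 h replicate 2 (0.0584 to 0.157), and with scaling only Col20a1 was called (adjusted p = 0.031). Outer hair cell markers summed to 514 to 831 TPM at 6 h and 782 to 896 TPM at 24 h, against 822 to 2221 TPM in control pull-downs, with 0 of 10 called by limma. Supporting cell markers summed to 2957 to 3388 TPM at 24 h against 1541 to 2094 TPM in controls, macrophage markers to 227 to 349 TPM at 24 h against 89.0 to 137 TPM, and stria vascularis markers to 2110 to 2714 TPM at 24 h against 1245 to 2067 TPM. Endothelial markers summed to 267 to 343 TPM at 6 h against 383 to 424 TPM in controls, and 1 of 6 cartilage markers was lower at each time. The mitochondrial share of all TPM was 10.6 to 13.7% at 6 h and up to 13.1% at 24 h, where it overlapped the controls, against 4.91 to 8.40% in control pull-downs. Their part in the collagen values was not tested.

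**Figure D5:**
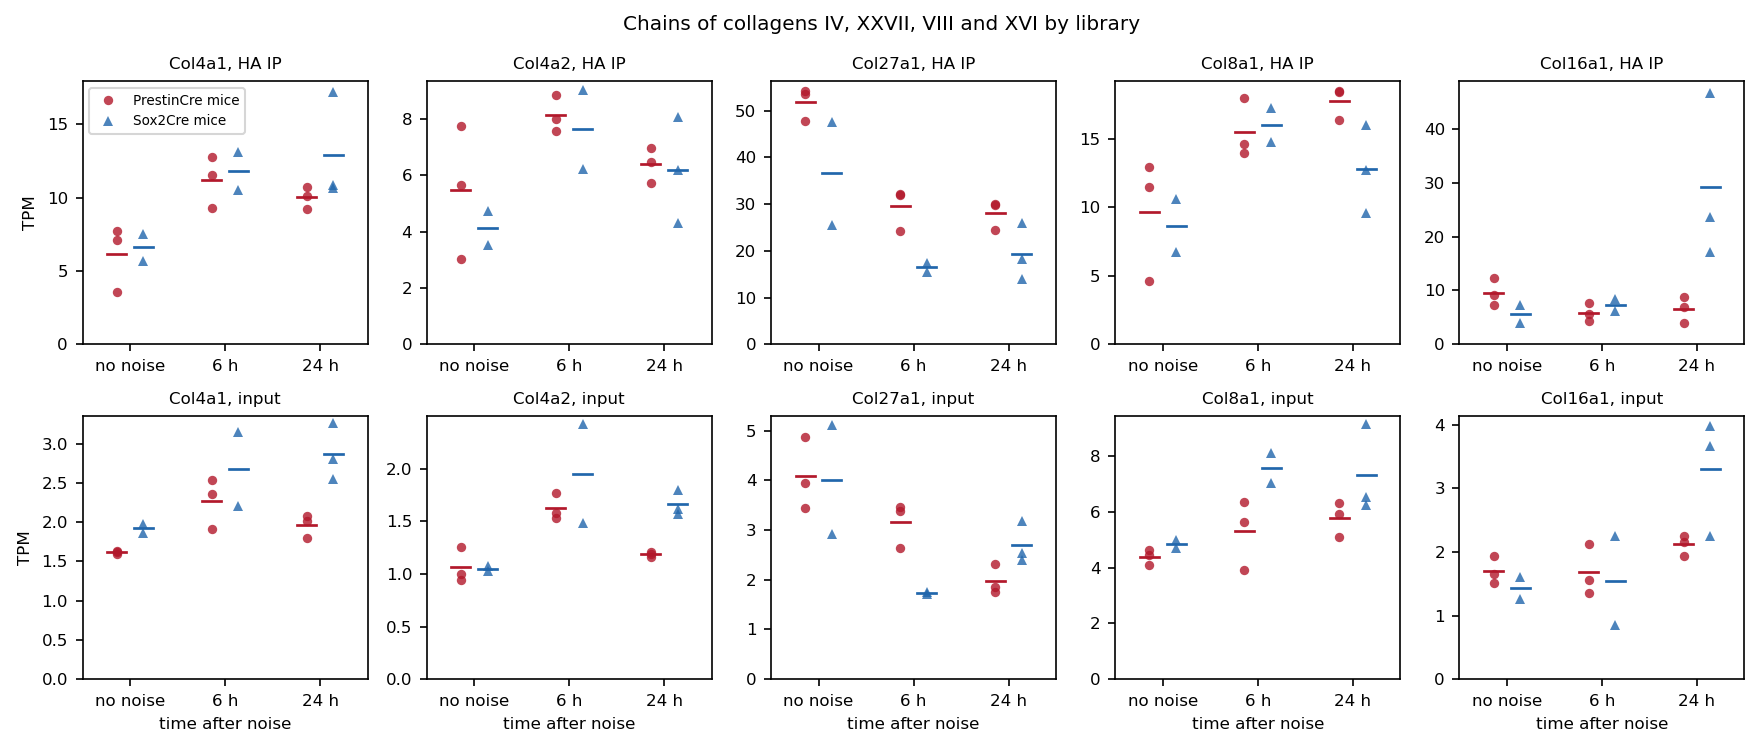
TPM of Col4a1, Col4a2, Col27a1, Col8a1 and Col16a1 in each library (points) by time (no noise, 6 h, 24 h after noise), pull-downs above inputs, with lines at group means. Col27a1 lies lower after noise than in controls in the outer hair cell pull-downs, and Col16a1 is highest in the supporting cell pull-downs at 24 h.

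In the supporting cell pull-downs no member was called by limma at 6 h or 24 h, where 0.694% of 17577 genes were called at 6 h (0.216% as higher, 0.478% as lower) and 0.188% at 24 h (0.108% as higher, 0.0796% as lower). At each time 3 of 30 members had an unadjusted p under 0.05, as had 3173 of 17577 genes at 6 h and 2028 at 24 h. The farthest was Col16a1 at 24 h, with 23.7, 17.2 and 46.7 TPM, against 7.21 and 4.02 TPM in control pull-downs. The 24 h values all lay above the controls, with 2.11 ± 0.46 (adjusted p = 0.210). Col27a1 was at 15.5 and 17.4 TPM at 6 h, against 25.6 and 47.6 TPM in controls, without overlap and not called (-1.04 ± 0.39, adjusted p = 0.241). The 6 h group consists of 2 of the libraries that stood apart, with a mitochondrial share of 7.21 to 8.83%, against 3.07 to 4.35% in control pull-downs.

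At 6 h, 0.856% of all genes tested were higher and 4.77% lower in the outer hair cell pull-downs. In the supporting cell pull-downs the shares were 0.216% and 0.478%. Beside these shares, the 30 listed genes for collagen synthesis and processing gave 1 call at 6 h in each kind of pull-down, Loxl4. This lysyl oxidase averaged 32.1 ± 9.11 TPM (SD, n = 3) in outer hair cell pull-downs at 6 h and 4.81 ± 3.91 TPM in controls (2.75 ± 0.52, adjusted p = 0.0338). In supporting cell pull-downs it averaged 28.9 ± 0.312 TPM (SD, n = 2) at 6 h and 3.38 ± 2.01 TPM in controls (2.85 ± 0.35, adjusted p = 0.0400). That supporting cell call rests on the 2 pull-downs at 6 h that stood apart and cannot be given without them. Loxl4 also rose in the inputs at 6 h (0.998 ± 0.25, adjusted p = 0.0230), and in the Prestin inputs alone (1.32, adjusted p = 0.0132). At 24 h the prolyl hydroxylase subunits P4ha2 and P4ha3 fell in the outer hair cell pull-downs (-0.86 and -1.30). There 5.14% of all genes tested were lower, and the median gene lay at -0.15.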

How the data were processed

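The 32 files held TPM values, deposited by the authors with 1 file per library. Per the submitters' processing notes, the tools include TopHat and the build is GRCm38. Which counter, annotation, strand setting and TPM tool were used is not given in the sources used here. Libraries were made with a directional kit, per the labels' protocols. TPM is relative, so a rise of a few abundant transcripts lowers all others, and depth cannot be read from it.

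The test was limma 3.58.1 (R 4.3.3) on log2(TPM + 1), with an intensity trend and Benjamini-Hochberg adjustment over all genes tested, at a threshold of 0.05. Genes needed 1 TPM in as many libraries as the smallest group (3 for Prestin, 2 for Sox2, 5 for inputs of both strains, 2 for differences). In fits with libraries left out the smallest group was counted anew, so the filter could loosen and the genes tested could change. Enrichment fits modelled group means and averaged the differences between pull-downs and inputs of a strain equally over no noise, 6 h and 24 h. The homogenate pairs the libraries by design (r from 0.0209 to 0.273 over 16 pairs), and only the replicate block used this pairing. The noise fits compared times within pull-downs or inputs. Only the main setting of each fit was run on simulated data, with noise independent between libraries. That simulation does not cover pairing, library-wide shifts or the other settings. Where groups did not overlap is a description, and how many of all genes were apart in the same way was not counted. The text names the chains the tests called, chains of the same collagen and members nearest a threshold. Other settings tried were scaling by a median of ratios, a replicate block, single strains, left-out libraries, no filter and 0.1 as pseudocount. Members and lists were chosen with earlier results of these data known.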

Additional observations from a re-analysis of the deposited data

Results flagged for a closer look

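The test of the difference itself (limma, adjusted over 19648 genes) called 14 of the 34 collagen chain genes tested. Their enrichment differed between the outer hair cell pull-downs and the supporting cell pull-downs. Of all genes tested 21.6% were called, 14% with positive and 7.62% with negative values. All values are log2 differences, outer hair cell minus supporting cell enrichment, so a negative value means the larger enrichment in the supporting cell pull-downs. The FACIT chain Col14a1 (-1.32) and the multiplexin Col18a1 (-0.64) had negative values. Fibrillar chains with positive values were Col5a1 (0.63), Col2a1 (0.57), Col27a1 (0.52), Col24a1 (0.48) and Col11a1 (0.47). The FACIT chains Col20a1 (0.79) and Col9a1 (0.51) were also positive. So were Col6a2 of collagen VI (0.89), Col7a1 of the anchoring fibrils (0.64), Col26a1 (0.59), Col4a4 of basement membranes (0.53) and the transmembrane collagen Col25a1 (0.39). Col14a1, Col5a1, Col7a1, Col20a1, Col24a1, Col25a1 and Col26a1 passed the filter through pull-downs alone, so their calls are descriptions. The calls of Col27a1, Col7a1 and Col9a1 were each lost in most of the fits that left out 1 homogenate. The median of all genes tested lay at 0.19.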

How the results depend on the processing

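Calls are limma's, as counts of collagen chain genes. Shares of all genes called are given above for the main fits only. Fits with fewer libraries can lose calls among all genes alike, so a lower count cannot be read as particular to collagen chain genes. In the supporting cell enrichment, 27 were called and 10 in the control libraries alone. For the difference of enrichments, 14 were called, 6 with a pseudocount of 0.1, 5 with median-of-ratios scaling, 0 in control libraries alone, 8 without the 6 h libraries and 8 to 15 with 1 homogenate left out. In the whole cochlea at 6 h, 3 were called, 1 with the replicate block, 0 in either strain alone and 1 to 6 with 1 library left out. At 24 h, 1 was called, 2 with scaling, 2 in Prestin alone, 0 in Sox2 alone, 2 without the Sox2 6 h inputs and 1 to 2 with 1 library left out. For 24 h against 6 h, 2 were called, 1 with no filter, 1 with the replicate block, 0 in Sox2 alone and 1 to 3 with 1 library left out. In the outer hair cell pull-downs at 6 h, 2 were called, 1 with a pseudocount of 0.1, 1 with no filter, 0 with scaling, 0 with the replicate block and 0 with any 1 library left out. At 24 h, 3 were called, 1 with scaling, 0 with the replicate block and 0 to 3 with 1 library left out. In noise fits the block used numbers that do not pair libraries: same-numbered libraries correlated by -0.0266 to 0.0673 in inputs and -0.0834 to 0.0296 in pull-downs.

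Among the called chains and those named with them, these values changed sign. With scaling, Col18a1 was at -0.18 and Col9a2 at -0.97 in the outer hair cell enrichment, Col8a1 at -0.017, Col9a2 at -0.82 and Col6a2 at -0.42 in the supporting cell enrichment, and Col9a2 at -0.11 in the difference. In the supporting cell enrichment Col6a2 was at -0.14 with a pseudocount of 0.1 and Col9a2 at -0.11 in control libraries alone, and in the difference Col9a3 was at 0.38 in control libraries alone. With the replicate block Col9a2 was at 0.11 in the supporting cell pull-downs at 24 h. With 1 library left out, Col6a2 ran from -0.035 to 0.34 in the supporting cell enrichment, Col9a2 from -0.079 to 0.11 in the difference, and Col4a2 from -0.052 to 0.51 in the outer hair cell pull-downs at 24 h. In the supporting cell pull-downs at 24 h, Col9a1 ran from -0.049 to 0.32, Col9a3 from -0.51 to 0.058 and Col9a2 from -0.31 to 0.060. Counted over all members tested both ways, scaling changed the sign of 3 in the difference, 3 in the outer hair cell pull-downs at 6 h and 2 in the supporting cell pull-downs at 24 h. The cause of these changes was not tested. The fits without 6 h libraries were chosen after seeing the data. With no read totals, the precision of low values is unknown.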
